A study of Homo sapiens with 9 samples.

Results

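The genes described here are 38 genes of the Fanconi anemia pathway and of homologous recombination, which repair DNA crosslinks and broken DNA ends. They were listed by symbol, by a rule that uses no measured value but was written with earlier results of these data known, and each of the 38 matched 1 row of a table of 24542 genes and loci. RNA was sequenced from A2780, an established line from a human ovarian carcinoma labelled as wild type, after 96 h of treatment. The 3 control libraries came from cells in 0.5% DMSO, the solvent. Another 3 came from cells given cisplatin (abbreviated in the labels) at 0.6 µM, and 3 from cells given Pt-ttpy, a compound of platinum that by the title of the series binds G-quadruplexes (folds of guanine-rich DNA), at 5.5 µM. The labels place both doses at the IC80 of the drug, so the drugs were compared at equal labelled toxicity and not at equal concentration. They name no solvent for the drug groups. The stated aim of the study was to find genes that Pt-ttpy acts on, and all results come from 1 cell line.

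Cisplatin can tie DNA strands together, and such a crosslink blocks a replication fork. The Fanconi core complex is recruited there by FANCM and, with the ubiquitin-conjugating enzyme UBE2T, attaches ubiquitin to the FANCD2 and FANCI clamp, which allows nucleases held by SLX4 to cut the crosslink out. The resulting double-strand break is trimmed by MRE11, RAD50, NBN and RBBP8 and is repaired by homologous recombination, in which BRCA1, BARD1, PALB2 and BRCA2 and the complexes of RAD51B, RAD51C, RAD51D, XRCC2 and XRCC3 prepare single-stranded DNA to invade an intact copy. Loss of these genes is known to make ovarian cancer cells sensitive to platinum, and many of them are transcribed more in cycling cells.

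Promoter windows from RefSeq (GRCh38.p14; 250 bases before to 50 after an annotated start) were at hand for 34 members, in 46 windows, and not for FANCI, NBN, RAD54B and RMI2. Windows are printed for the 3 members that were lower after a drug, RAD51D, FAAP100 and SLX4, and for FANCD2, whose fitted rise with Pt-ttpy came closest to the threshold. Each is read 5′ to 3′ along the gene. Capitals mark the quadruplex pattern in RAD51D, 4 runs of at least 3 G joined by 1 to 7 bases, and E2F letters in FANCD2, the reverse complement of TTTCCCGC.
RAD51D, chr17:35119709-35120008, minus strand: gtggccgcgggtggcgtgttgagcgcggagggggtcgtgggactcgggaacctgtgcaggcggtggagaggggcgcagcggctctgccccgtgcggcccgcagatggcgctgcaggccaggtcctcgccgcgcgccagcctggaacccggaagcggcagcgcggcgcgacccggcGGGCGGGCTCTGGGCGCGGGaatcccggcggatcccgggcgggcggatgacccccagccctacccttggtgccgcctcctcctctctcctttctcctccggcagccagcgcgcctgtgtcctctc
FAAP100, chr17:81552304-81552603, minus strand: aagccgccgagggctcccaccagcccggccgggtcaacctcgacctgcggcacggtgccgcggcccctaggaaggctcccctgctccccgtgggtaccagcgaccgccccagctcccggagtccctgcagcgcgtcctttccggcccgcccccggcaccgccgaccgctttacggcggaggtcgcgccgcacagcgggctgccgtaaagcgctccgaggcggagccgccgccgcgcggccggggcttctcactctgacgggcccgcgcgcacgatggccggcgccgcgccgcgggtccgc
SLX4, chr16:3611557-3611856, minus strand: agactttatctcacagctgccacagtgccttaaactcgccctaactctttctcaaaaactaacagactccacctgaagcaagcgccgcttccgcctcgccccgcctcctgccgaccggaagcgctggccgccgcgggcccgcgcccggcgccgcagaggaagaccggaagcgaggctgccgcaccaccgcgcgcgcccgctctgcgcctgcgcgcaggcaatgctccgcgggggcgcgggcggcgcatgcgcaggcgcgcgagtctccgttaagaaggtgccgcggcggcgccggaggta
FANCD2, chr3:10026187-10026486, plus strand: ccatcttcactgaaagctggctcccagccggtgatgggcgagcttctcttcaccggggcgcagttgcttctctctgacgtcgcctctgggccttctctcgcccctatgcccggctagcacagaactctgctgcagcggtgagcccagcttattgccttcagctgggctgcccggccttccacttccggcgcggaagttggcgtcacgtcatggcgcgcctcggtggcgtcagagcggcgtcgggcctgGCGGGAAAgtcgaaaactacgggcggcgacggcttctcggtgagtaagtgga
In RAD51D the pattern lies at positions −75 to −56 from the start of this window, and RefSeq lists a further window for the gene that holds the same run after its own start. In FANCD2 the E2F letters span the start, from −2 to 5. The FAAP100 and SLX4 windows held none of the motifs searched on either strand.

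Over all 46 windows of members, the quadruplex pattern occurred in 10 (21.7%; BARD1, FAN1, FANCC, GEN1, RAD51D, RAD54L, RBBP8 and RMI1), against 25.0% of the 35116 windows of the whole table and 34.1% of the windows of tested genes. E2F letters (TTTCCCGC, TTTGGCGC or TTTCGCGC) occurred in 4 (8.70%; FANCC, FANCD2, GEN1 and XRCC2), against 2.74% of all windows and 4.05% of those of tested genes. The CHR letters TTTGAA or TTCGAA, an element of genes expressed in G2 and mitosis, occurred in 15.2% against 16.4% of all windows and 11.7% of those of tested genes, and the NF-Y letters CCAAT in 34.8% against 34.6% and 34.5%. The p53 decamer was in 0 of the 46 windows against 6.63% of all windows and 5.70% of those of tested genes. These are matches of letters on both strands, with no test, and motifs may overlap.

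The libraries held 31.3 to 40.8 M counts, of which the 38 members together took 0.134% to 0.174%. All 38 passed the filter on low counts, as did 15558 genes and loci in all. The labels call the libraries of a group biological replicates without saying that they came from separate cultures, so the p-values may reflect no more than the spread among these libraries. The DMSO 2 and cisplatin 2 libraries stood apart. Over all genes, transcripts richer in GC had relatively more counts there (Spearman rho 0.52 and 0.42, against −0.34 to −0.17 in the other 7 libraries), and the counts of members called and the members' medians are also given without them. Vimentin was at 4922 to 8964 CPM (counts relative to TMM-scaled library size), while the other 3 mesenchymal markers, CDH2, FN1 and WT1, were each at 2.30 CPM or less in every library. The 9 epithelial markers summed to 2.02 to 2.69 CPM with DMSO, 6.25 to 12.6 with cisplatin and 2.68 to 4.29 with Pt-ttpy. WFDC2 was at 0 in all 9 libraries and PAX8 and MUC16 at 0 or near it, so defining epithelial markers of ovarian carcinoma were absent or nearly so. Leukocyte markers summed to 3.47 to 5.70 CPM and endothelial markers to at most 0.401 CPM. The 8 fibroblast markers, of which FAP was at 0, summed to 1016 to 1089 CPM with DMSO, 1612 to 1900 with cisplatin and 1685 to 1757 with Pt-ttpy. Of the 7 tested, 4 rose with each drug (COL3A1, DCN, LUM and PDGFRB) and 3 were not called, and their part in the results was not tested.

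Per kilobase of transcript, the members spanned a wide range of levels. The highest means over the 9 libraries were 62.7 CPM per kb for UBE2T, 44.2 for FANCI and 26.4 for FAAP100, followed by 22.3 for RMI2 and 20.8 for FANCG. FANCD2, the partner of FANCI, was at 19.0 CPM per kb, BRCA1 at 8.73 and BRCA2 at 3.05. The lowest were FANCM at 1.88, FANCB at 1.56 and RAD51B at 1.25 CPM per kb. Members of 1 complex thus differed widely in level, as with FAAP100 and FANCB, which sit in the same module of the core complex. These levels divide by the length of 1 transcript per gene (the principal one in GENCODE 29), which for RAD51D was 9988 bases, so its 2.83 CPM per kb would be higher for a shorter isoform.

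After either drug most members were within 2-fold of DMSO. The few that passed the test in the main fit (9 libraries, TMM scaling) were lower. With Pt-ttpy, 0 of the 38 members rose and 1 fell, FAAP100 (edgeR's quasi-likelihood test, Benjamini-Hochberg adjusted p under 0.05). That is a share of 2.63%, against 12.0% of all tested genes, of which 5.59% rose and 6.45% fell. With cisplatin 0 rose and 3 fell, FAAP100, SLX4 and RAD51D, a share of 7.89% against 20.5% of all tested genes (10.7% higher, 9.78% lower). Between the drugs 0 members differed, against 0.514% of all tested genes (0.0578% higher with Pt-ttpy, 0.456% lower). Unadjusted p was under 0.05 for 7 members in each of the 3 comparisons (18.4%), where the shares over all genes were 29.8% for Pt-ttpy, 35.1% for cisplatin and 8.06% between the drugs. Both drugs were set against the same 3 DMSO libraries, so a deviation of those libraries enters both comparisons. Left out singly, any Pt-ttpy library ended the Pt-ttpy call (0 members), DMSO 1 gave 2 and cisplatin 2 gave 4. Without any 1 Pt-ttpy library, Pt-ttpy calls in other lists described below also went, from 7 to 0 for proliferation and from 1 to 0 for end joining. For cisplatin the count of members was 1 without DMSO 3, cisplatin 1, cisplatin 3 or any Pt-ttpy library, and at most 4, without DMSO 2. The shares of all tested genes called in these fits are not given here, so these counts are not read as particular to the members. In bulk RNA, fewer cells in a cycle phase that expresses a gene and less RNA of it per cell cannot be told apart.

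The members' median log2 change was 0.12 with Pt-ttpy (all tested genes 0.03), with 27 members above 0 and 11 below, and the range was −0.45 to 0.44. With cisplatin it was −0.06 (all tested genes 0.01), with 18 above and 20 below, from −0.65 to 0.45, and this median turned positive with other scalings (0.026 with upper-quartile factors, 0.037 with library totals) and without cisplatin 2 (0.022). Leaving out other libraries moved it from −0.115 (without DMSO 2) and −0.0911 (without cisplatin 3) to −0.0236 (without DMSO 3) and −0.0099 (without DMSO 1). The Pt-ttpy median was 0.209 without DMSO 1, 0.0655 without DMSO 2, 0.0761 without Pt-ttpy 1, 0.187 with upper-quartile factors and 0.182 with library totals. The 3 Pt-ttpy values and the 3 DMSO values did not overlap in 11 members. Of these 8 were higher with Pt-ttpy (BARD1, FANCD2, FANCF, FANCI, FANCL, MRE11, RAD54B and UBE2T), where 20.3% of all tested genes were, and 3 were lower (FAAP100, RAD51D and SLX4), where 20.6% were. For cisplatin 5 were wholly higher (FAN1, FANCL, RAD51C, RAD52 and RMI2; all tested genes 18.6%) and 6 wholly lower (FAAP24, FAAP100, RAD51D, RAD54L, SLX4 and UBE2T; all tested genes 19.4%). The precision of the fit bounds these changes. The 95% interval lay within 2-fold either way for 37 members with Pt-ttpy and 33 with cisplatin, and within 1.5-fold for 17 and 23.

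**Figure D1:**
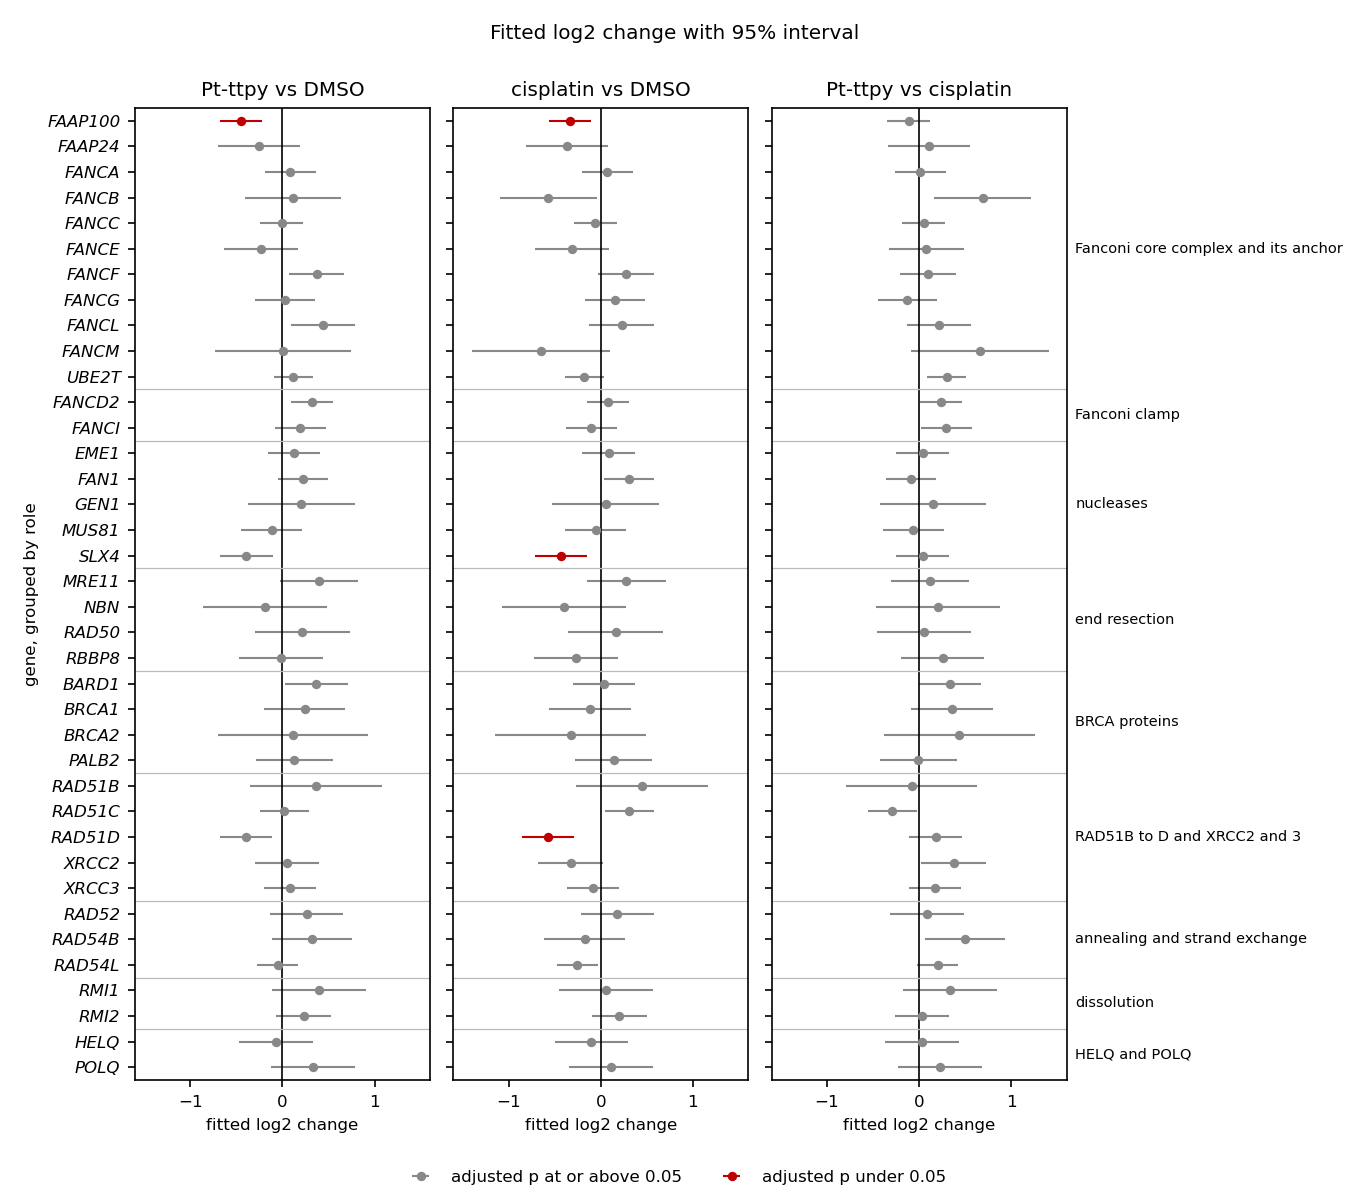
Fitted log2 change (x axis) of each of the 38 members (y axis, grouped by role) for Pt-ttpy against DMSO, cisplatin against DMSO and Pt-ttpy against cisplatin. Points are edgeR estimates over 9 libraries and bars 95% intervals. The 4 red estimates, with adjusted p under 0.05, all lie below 0, 1 for Pt-ttpy and 3 for cisplatin, and none is in the panel that compares the drugs.

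The core complex and its anchor held FAAP100, the member called lower after both drugs in the main fit. FAAP100 (ENSG00000185504; GRCh38, GENCODE 29, chromosome 17, 81539885 to 81553961) encodes a scaffold of the catalytic module that also holds FANCB and the ubiquitin ligase FANCL. It was at 103, 129.8 and 109 CPM in DMSO 1, 2 and 3, at 92.8, 90.5 and 87.2 with cisplatin and at 83.8, 81.8 and 84.2 with Pt-ttpy. All 6 treated libraries lay below all 3 controls, and DMSO 2 was the highest of the controls. FAAP100 fell from 114 ± 14.2 to 83.3 ± 1.27 CPM with Pt-ttpy (SD, n = 3), 0.732 times the DMSO level (log2 −0.45, SE 0.11, edgeR adjusted p = 0.0216). With cisplatin it fell to 90.1 ± 2.81 CPM (log2 −0.34, SE 0.11, edgeR adjusted p = 0.0425). The Pt-ttpy call was lost without Pt-ttpy 1, 2 or 3 (adjusted p = 0.0869, 0.102 and 0.0781), and the cisplatin call was present in 8 of 23 fits and was lost without any single library other than DMSO 1 (adjusted p 0.0536 to 0.110). Without both DMSO 2 and cisplatin 2 the log2 changes were −0.34 (adjusted p = 0.000182) and −0.23 (0.0105).

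The other 10 members of the core complex and its anchor were not called in the main fit. FANCL, the ligase subunit, had the highest estimate of all members with Pt-ttpy, at log2 0.44 (95% interval 0.094 to 0.79, adjusted p = 0.0882). FANCB stood at 5.96, 3.66 and 5.69 CPM with DMSO, 3.22, 3.10 and 4 with cisplatin and 6.15, 5.92 and 4.56 with Pt-ttpy. DMSO 2 was low among the controls and overlapped the cisplatin libraries, and the estimates were −0.57 (−1.10 to −0.043) for cisplatin and 0.12 (−0.40 to 0.64) for Pt-ttpy. FANCM, the translocase that recruits the complex, was at 19.7, 6.38 and 19.4 CPM with DMSO, 11.5, 6.92 and 10.7 with cisplatin and 14.4, 15.8 and 15.6 with Pt-ttpy. The library numbered 2 was the lowest of its group with DMSO and with cisplatin, and the interval was wide, from −0.73 to 0.75 with Pt-ttpy and from −1.40 to 0.10 with cisplatin. Without DMSO 2 alone both genes passed for cisplatin, FANCB at −0.76 (adjusted p = 0.0402) and FANCM at −1.01 (adjusted p = 0.0101). Each was called for cisplatin in 3 of 23 fits. FAAP24, the partner of FANCM, had estimates of −0.25 and −0.36 for Pt-ttpy and cisplatin, and FANCF, an adaptor, 0.37 and 0.27. FANCE, which contacts FANCD2, had −0.23 and −0.31. The remaining members were nearer to 0: FANCA at 0.085 and 0.072, FANCG at 0.03 and 0.16, FANCC at −0.0071 and −0.06, and UBE2T at 0.12 and −0.18. FANCA, FANCF and FANCL share exon positions with genes on the opposite strand (ZNF276, GAS2 and VRK2). The strandedness of the counting is not given in the sources used here, so counts in shared exons are uncertain for these and for the other overlaps named below.

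Both genes of the clamp had higher estimates with Pt-ttpy, and neither was called in the main fit. FANCD2 (ENSG00000144554; chromosome 3, 10026414 to 10101930) was at 89.4, 86.7 and 94.0 CPM with DMSO, 89.0, 91.1 and 106 with cisplatin and 105, 112 and 119.9 with Pt-ttpy. The Pt-ttpy libraries were all above the controls, by little in Pt-ttpy 1, and cisplatin 3 fell among them. Its estimate with Pt-ttpy was log2 0.32 (SE 0.10, 95% interval 0.093 to 0.55, edgeR adjusted p = 0.0649), and it was called in 9 of 23 fits, among them those without DMSO 2 and cisplatin 2 (0.30, adjusted p = 0.0055) and with a GC correction (0.28, 0.0243). With cisplatin the estimate was 0.082 (−0.14 to 0.31, adjusted p = 0.613). FANCI (ENSG00000140525; chromosome 15, 89243949 to 89317261), whose exons overlap POLG, was at 215, 182 and 212 CPM with DMSO, 199, 153 and 216 with cisplatin and 215, 238 and 244 with Pt-ttpy. DMSO 2 and cisplatin 2 were its lowest libraries, and Pt-ttpy 1 lay barely above DMSO 1. The estimates were 0.20 (SE 0.13, adjusted p = 0.336) for Pt-ttpy and −0.10 (SE 0.13, adjusted p = 0.615) for cisplatin.

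Among the 5 genes of this role, the nucleases and the scaffold SLX4, only SLX4 was called in the main fit, with cisplatin. SLX4 (ENSG00000188827; chromosome 16, 3581181 to 3611598), the platform that holds MUS81 with EME1 and other nucleases, was at 28.0, 35.1 and 33.6 CPM with DMSO, 21.0, 25.3 and 25.4 with cisplatin and 25.4, 25.1 and 23.1 with Pt-ttpy. All treated libraries were below the controls. With cisplatin it fell from 32.2 ± 3.73 to 23.9 ± 2.54 CPM (SD, n = 3), 0.742 times the DMSO level (log2 −0.43, SE 0.13, edgeR adjusted p = 0.038). With Pt-ttpy the mean was 24.6 ± 1.24 CPM and the estimate −0.39 (95% interval −0.68 to −0.11), which did not pass (adjusted p = 0.0706). The cisplatin call was present in 12 of 23 fits and was lost without DMSO 2 (0.0694), DMSO 3 (0.107), cisplatin 1 (0.121), cisplatin 3 (0.056) or any Pt-ttpy library (0.0601 to 0.0666). Without both DMSO 2 and cisplatin 2 SLX4 passed for both drugs (Pt-ttpy −0.32, adjusted p = 0.024; cisplatin −0.40, 0.0136). A long noncoding RNA on the opposite strand shares exon positions with it.

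The nucleases that SLX4 holds, and the other nucleases, were not called in the main fit. MUS81 had estimates of −0.12 (95% interval −0.45 to 0.21) with Pt-ttpy and −0.056 (−0.39 to 0.28) with cisplatin, and its partner EME1 had 0.12 (−0.16 to 0.41) and 0.087 (−0.20 to 0.37). FAN1, a nuclease that acts on crosslinks with the ubiquitinated clamp, was at 28.2, 25.3 and 30.2 CPM with DMSO and 35.4, 34 and 34.4 with cisplatin. The cisplatin libraries were all higher, with an estimate of 0.31 (0.039 to 0.58, adjusted p = 0.096). FAN1 passed in 2 of 23 fits, with library totals (0.40, adjusted p = 0.0497) and with the GC correction (0.38, 0.0127). GEN1, which resolves joined DNA molecules, had estimates of 0.21 and 0.054 with wide intervals (−0.37 to 0.78 and −0.52 to 0.63). EME1, FAN1 and MUS81 share exon positions with LRRC59, MTMR10 and CFL1.

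None of the 4 genes of end resection was called in the main fit. MRE11 (ENSG00000020922; chromosome 11, 94415578 to 94493908), the nuclease of the complex that binds broken ends, was at 23.4, 14 and 23.2 CPM with DMSO, 24.0, 20.3 and 29.2 with cisplatin and 25.4, 28.1 and 26.3 with Pt-ttpy. The Pt-ttpy libraries were above all controls, of which DMSO 2 was far the lowest. Its estimates were 0.40 (SE 0.20, adjusted p = 0.197) with Pt-ttpy and 0.28 (SE 0.20, adjusted p = 0.338) with cisplatin. NBN, the signalling subunit, was at 73.4, 34.5 and 71.2 CPM with DMSO, 53.5, 25.8 and 56.7 with cisplatin and 51.6, 53.5 and 52.1 with Pt-ttpy. DMSO 2 and cisplatin 2 fell below every Pt-ttpy library, while the other DMSO libraries lay above every treated one. Over 9 libraries its Pt-ttpy estimate was −0.19 (−0.86 to 0.48, adjusted p = 0.725), and over 7 libraries it fell by 0.46 on the log2 scale (adjusted p = 1.99e-05). NBN was called with Pt-ttpy in only 1 of 23 fits, and the GC correction of all 9 libraries gave −0.35 (adjusted p = 0.149). With cisplatin its estimate was −0.40 over 9 libraries (−1.07 to 0.27, edgeR adjusted p = 0.384) and −0.39 over 7 libraries (0.000361). The GC correction gave −0.44 with cisplatin (0.0636), and NBN was called with cisplatin also in 1 of 23 fits. RAD50, the zinc-hook ATPase of the complex, had estimates of 0.22 and 0.16, and RBBP8 (CtIP), which starts resection, had −0.013 and −0.27. Most of the exons of RAD50 (79.7% of bases) are shared with a read-through gene.

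The 4 genes BRCA1, BARD1, PALB2 and BRCA2 had positive estimates with Pt-ttpy in the main fit, and none was called there with either drug. BRCA1 (ENSG00000012048; chromosome 17, 43044295 to 43170245), a ubiquitin ligase that favours resection, was at 69.3, 43.6 and 70.9 CPM with DMSO, 58.5, 41.7 and 69.6 with cisplatin and 66.4, 75.7 and 75.5 with Pt-ttpy. DMSO 2 and cisplatin 2 were the lowest libraries by a wide margin and the groups overlapped. Its estimates were 0.24 (SE 0.20, adjusted p = 0.453) with Pt-ttpy and −0.11 (SE 0.20, adjusted p = 0.726) with cisplatin. BARD1, its obligate partner, had 0.37 (95% interval 0.031 to 0.71, adjusted p = 0.135) and 0.034 (−0.31 to 0.37).

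PALB2 (ENSG00000083093; chromosome 16, 23603160 to 23641310), which links BRCA1 to BRCA2, was at 32.4, 21.8 and 26.6 CPM with DMSO, 32.8, 21.4 and 34.9 with cisplatin and 28.5, 27.8 and 32.3 with Pt-ttpy. The 3 groups overlapped, and its estimates were 0.13 (SE 0.19, adjusted p = 0.69) and 0.14 (SE 0.19, adjusted p = 0.641). BRCA2 (ENSG00000139618; chromosome 13, 32315474 to 32400266), which acts on the resected single strand, was at 49.4, 15.2 and 49.7 CPM with DMSO, 33.0, 21.5 and 36.8 with cisplatin and 40.0, 43.5 and 40.1 with Pt-ttpy. DMSO 2 was at 0.307 times the mean of the other controls, and the order of the groups turned on it. Over 9 libraries the Pt-ttpy estimate was 0.11 (SE 0.37, 95% interval −0.70 to 0.93, adjusted p = 0.87) and the cisplatin estimate −0.33 (SE 0.37, adjusted p = 0.568). Over the 7 libraries without DMSO 2 and cisplatin 2 BRCA2 fell by 0.26 on the log2 scale with Pt-ttpy (adjusted p = 0.0132) and by 0.50 with cisplatin (adjusted p = 0.000242). Left out alone, DMSO 2 gave a fall of 0.70 with cisplatin (adjusted p = 0.0285). BRCA2 was called in 1 of 23 fits with Pt-ttpy and in 2 with cisplatin. The GC correction of all 9 libraries called neither, at −0.036 (adjusted p = 0.921) and −0.32 (0.248).

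**Figure D2:**
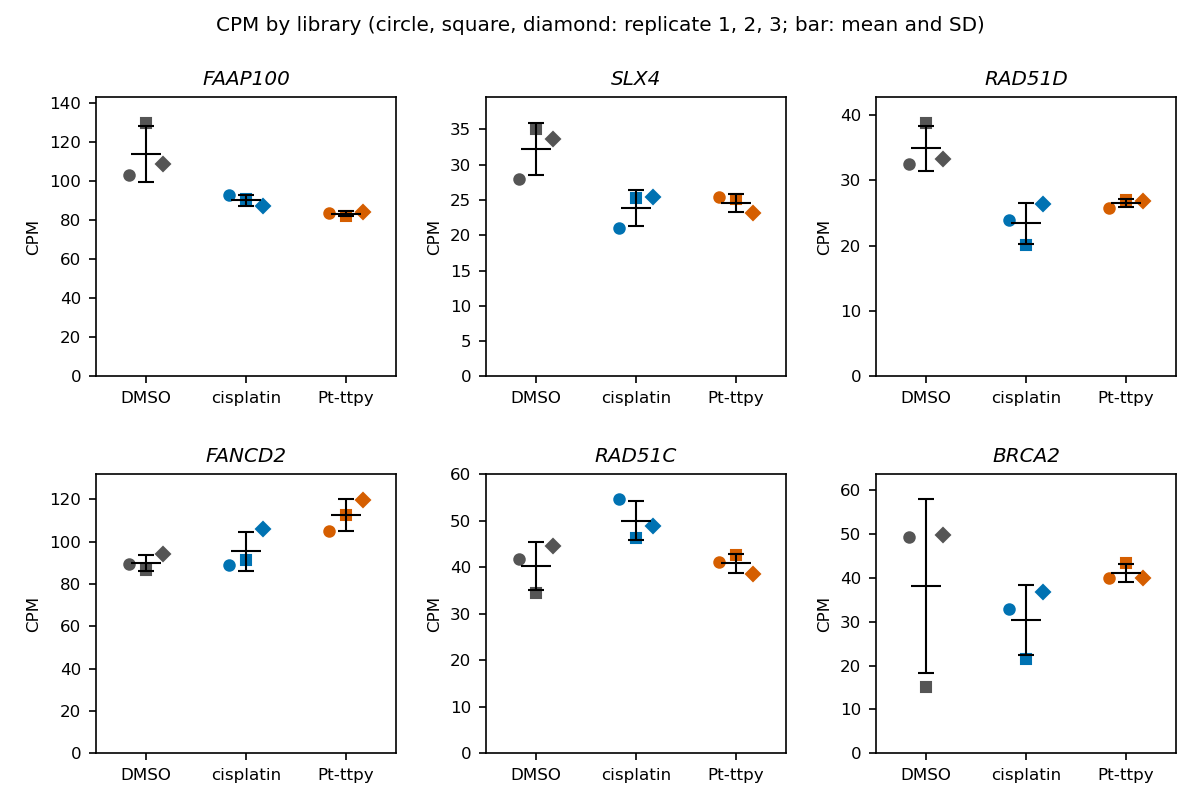
CPM (y axis, from 0) of FAAP100, SLX4, RAD51D, FANCD2, RAD51C and BRCA2 in each library (points, marker shape by replicate number) of the 3 groups (x axis), with the mean and SD (n = 3). In FAAP100, SLX4 and RAD51D all 6 treated libraries lie below the 3 controls, while in BRCA2 the DMSO 2 library (15.2 CPM) lies far below the other controls.

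Of RAD51B, RAD51C, RAD51D, XRCC2 and XRCC3, which act together in shared complexes, RAD51D was lower and RAD51C was not. RAD51D (ENSG00000185379; chromosome 17, 35092208 to 35121522) was at 32.5, 38.8 and 33.2 CPM with DMSO, 23.9, 20.1 and 26.3 with cisplatin and 25.8, 26.9 and 26.8 with Pt-ttpy. Each treated library was below each control, with cisplatin 2 the lowest and DMSO 2 the highest. With cisplatin it fell from 34.8 ± 3.44 to 23.4 ± 3.14 CPM (SD, n = 3), 0.672 times the DMSO level (log2 −0.57, SE 0.13, edgeR adjusted p = 0.0122). This call was present in 22 of 23 fits and was lost when the 6 libraries of the comparison were fitted alone (adjusted p = 0.0553). With Pt-ttpy the mean was 26.5 ± 0.627 CPM and the estimate −0.39 (95% interval −0.68 to −0.11), which did not pass (adjusted p = 0.0687). Without DMSO 2 and cisplatin 2 RAD51D passed for both drugs (Pt-ttpy −0.31, adjusted p = 0.0107; cisplatin −0.38, 0.0054). A read-through gene with RFFL on the same strand shares 8.01% of its exon bases.

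RAD51C, which works in 1 complex with RAD51B, RAD51D and XRCC2 and in another with XRCC3, was at 41.7, 34.6 and 44.6 CPM with DMSO, 54.6, 46.4 and 48.9 with cisplatin and 41.1, 42.8 and 38.7 with Pt-ttpy. The cisplatin libraries were above all others. The estimates were 0.31 for cisplatin against DMSO (95% interval 0.044 to 0.58, adjusted p = 0.0907) and −0.29 for Pt-ttpy against cisplatin (−0.56 to −0.024, adjusted p = 0.559). Neither passed in the main fit. Against DMSO the cisplatin estimate passed over 9 libraries with upper-quartile factors (0.39, adjusted p = 0.0436), library totals (0.39, 0.0452) and a GC correction (0.34, 0.00688), and the difference between the drugs passed with the GC correction (−0.39, 0.0259). Without DMSO 2 and cisplatin 2 both passed, at 0.27 (adjusted p = 0.0229) and −0.34 (0.0123). XRCC2 had estimates of 0.048 with Pt-ttpy and −0.33 with cisplatin, and XRCC3 had 0.085 and −0.083, with most of its exon bases (76.7%) shared with KLC1. RAD51B, the least expressed member, had 0.37 (−0.35 to 1.09) and 0.45 (−0.27 to 1.16).

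The genes of annealing, strand exchange and dissolution and the alternative pathways were not called. RAD52 (ENSG00000002016; chromosome 12, 912077 to 990053), which anneals complementary strands, was at 6.05, 7.22 and 7.11 CPM with DMSO, 7.53, 7.30 and 8.27 with cisplatin and 9.69, 6.79 and 8 with Pt-ttpy. The cisplatin libraries all exceeded the controls by a small margin, and Pt-ttpy 2 fell among the controls. Its estimates were 0.26 (SE 0.18, adjusted p = 0.362) and 0.18 (SE 0.18, adjusted p = 0.519). The motor proteins RAD54L and RAD54B, which drive strand exchange, had Pt-ttpy estimates of −0.053 and 0.32 and cisplatin estimates of −0.25 and −0.18. RMI1 and RMI2, which help BLM and TOP3A to dissolve joint molecules, had 0.39 and 0.23 with Pt-ttpy and 0.057 and 0.20 with cisplatin. HELQ, a helicase, had −0.068 and −0.10, and POLQ, the polymerase of microhomology-mediated end joining, had 0.34 and 0.11. The exons of RAD54B are shared for the larger part with FSBP (59.1% of bases) and those of RAD54L in part with LRRC41.

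Set against each other in the main fit, the drugs differed past the threshold in 0 of the 38 members, against 0.514% of all tested genes. The median log2 difference was 0.14 (all tested genes 0.0042), 31 members were above 0 and 7 below, and the range was −0.29 to 0.69. The median was 0.0804 without cisplatin 2, 0.232 without cisplatin 3 and 0.0791 over the 7 libraries without DMSO 2 and cisplatin 2. The 95% interval lay within 2-fold either way for 35 members and within 1.5-fold for 25. The largest estimates were FANCB at 0.69 (95% interval 0.16 to 1.22), FANCM at 0.66 (−0.093 to 1.41), RAD54B at 0.50 (0.063 to 0.94) and BRCA2 at 0.44 (−0.38 to 1.26). Values did not overlap in 8 members that were higher with Pt-ttpy (BARD1, BRCA2, FANCB, FANCM, RAD54B, RAD54L, UBE2T and XRCC2), where 10.5% of all tested genes were. They did not overlap in RAD51C and FAAP100, which were lower with Pt-ttpy, where 10.1% of tested genes were. UBE2T had the smallest adjusted p (0.344), with 49.6, 50.4 and 52.5 CPM with cisplatin and 61.0, 63.0 and 63.4 with Pt-ttpy around the DMSO values of 59.6, 58.8 and 53.9. The intervals of FANCB, FANCM and BRCA2 reached past 2-fold.

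**Figure D3:**
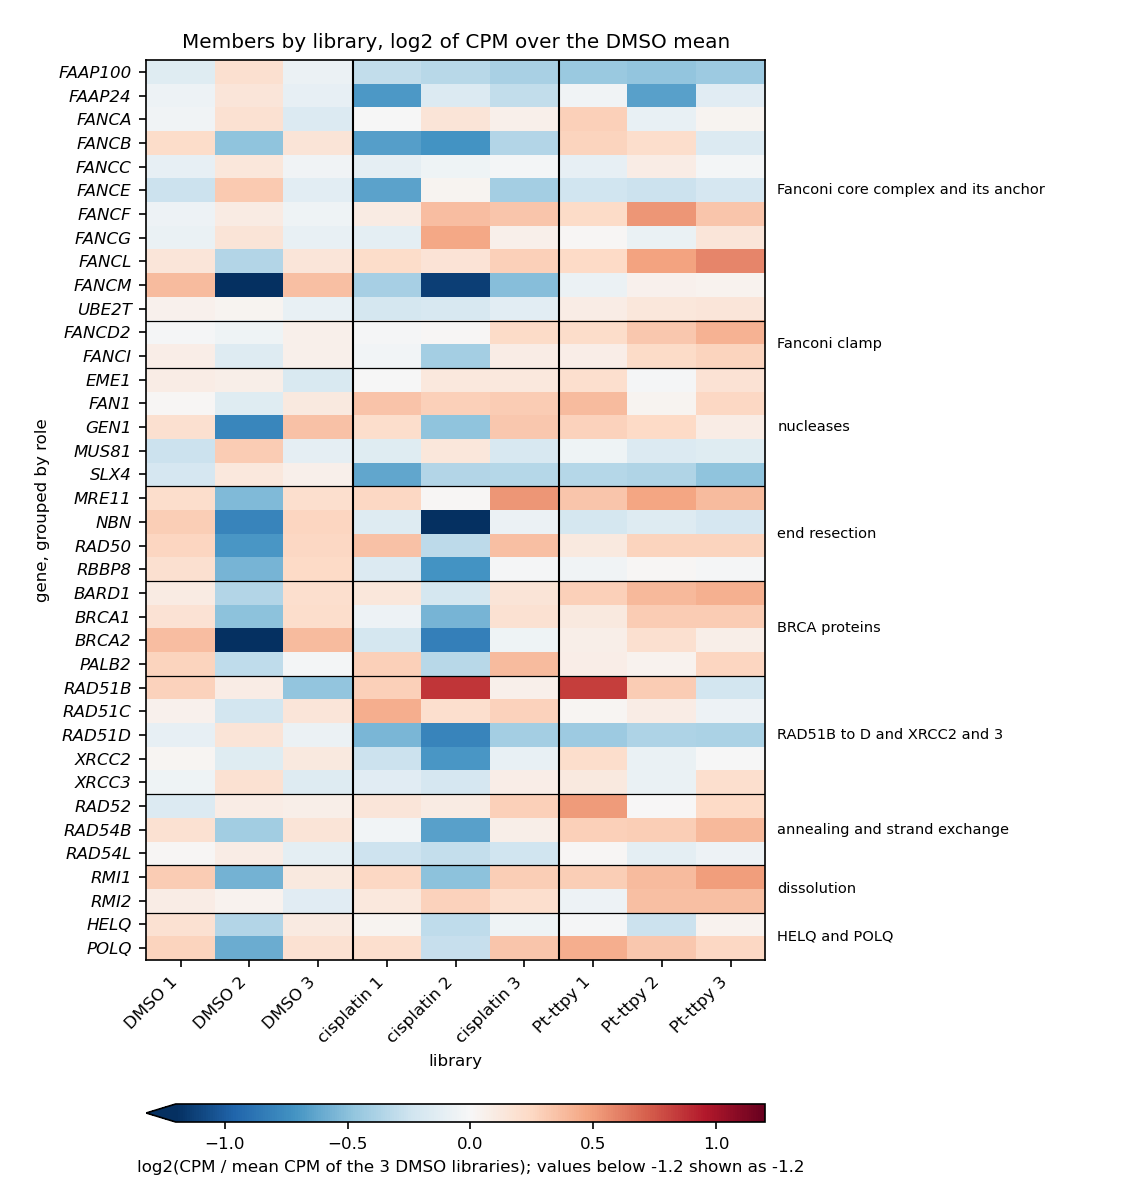
Heat map of the 38 members (rows, by role) in the 9 libraries (columns), coloured by log2 of CPM over the mean of the 3 DMSO libraries. The DMSO 2 and cisplatin 2 columns hold most of the dark blue cells, BRCA2, FANCM and NBN among them, while the Pt-ttpy columns vary least.

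Much of the spread among the members lay in DMSO 2 and cisplatin 2, and it followed the GC content of the transcript. The members' transcripts had a median GC content of 43.4% (36.0% to 65.6%), below the median of 49.8% over tested genes for 26 of the 38. In DMSO 2 all 19 members with the lower GC content were under the mean of the other controls, with a median log2 of −0.69, while the 19 with the higher GC content had a median of 0.19 and 2 of them were under it. Cisplatin 2 had 19 of 19 (median −0.62) and 7 of 19 (0.06). Over all tested genes the medians were 0.08 and 0.0014. Across the 38 members the deviation and the GC content gave Spearman rho 0.92 and Pearson r 0.80 in DMSO 2, and 0.78 and 0.68 in cisplatin 2. With transcript length the Spearman rho was −0.45 in DMSO 2 and −0.58 in cisplatin 2, and GC content and length were not separated. The deviations of DMSO 2 and cisplatin 2 correlated with each other at Pearson r 0.81 over the members. The genes of a library share its depth and preparation and are not independent, so these coefficients are descriptions. At the low end, DMSO 2 was at 0.307 times the other controls for BRCA2, 0.327 for FANCM, 0.478 for NBN, 0.479 for GEN1 and 0.516 for RAD50. At the high end it was at 1.42 for FANCE and 1.39 for MUS81. The members called lower in the main fit were also among the 19 of higher GC content. For them DMSO 2 was at 1.23 times the other controls in FAAP100 (65.6% GC), 1.14 in SLX4 (57.6%) and 1.18 in RAD51D (47.1%). A higher DMSO 2 raises the control mean from which they fell, and its part in their falls was not tested. The median spread between the highest and the lowest library of a group was 0.43 (log2) with DMSO, 0.38 with cisplatin and 0.19 with Pt-ttpy.

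**Figure D4:**
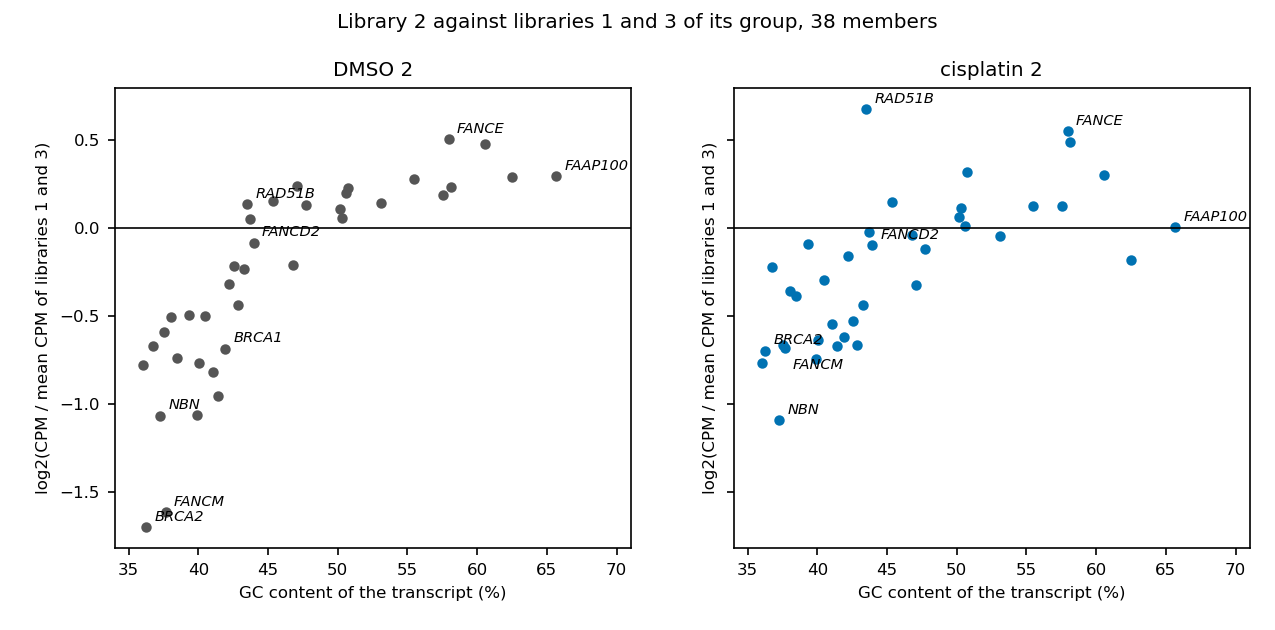
Log2 of the CPM in DMSO 2 (left) and cisplatin 2 (right) over the mean of libraries 1 and 3 of the same group (y axis) against transcript GC content in percent (x axis), 1 point per member (38). The 19 members of lower GC content lie below 0 in both panels, down to BRCA2 at 0.307 times the other DMSO libraries.

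Without these 2 libraries more members and more genes of all kinds passed, and the members' median log2 change was 0.07 with Pt-ttpy, 0.0057 with cisplatin and 0.0791 between the drugs. With Pt-ttpy 10 members passed (26.3%, against 33.2% of all genes tested over 7 libraries, 15.8% higher and 17.4% lower). BARD1 (0.22), FANCD2 (0.30) and FANCF (0.43) were higher. NBN (−0.46), FANCM (−0.35), FAAP100 (−0.34), SLX4 (−0.32), RAD51D (−0.31), BRCA2 (−0.26) and RBBP8 (−0.22) were lower. With cisplatin 10 passed (26.3%, against 30.2%, of which 13.9% higher and 16.4% lower), RAD51C higher (0.27) and 9 lower, among them FANCM (−0.81, adjusted p = 0.00012), FANCB (−0.68), BRCA2 (−0.50), FANCE (−0.32), NBN (−0.39) and RBBP8 (−0.29). Between the drugs 3 passed (7.89%, against 5.20%, of which 2.37% higher and 2.83% lower), FANCM (0.46) and UBE2T (0.29) higher with Pt-ttpy and RAD51C lower (−0.34). In this fit DMSO and cisplatin have 2 libraries each. The members' share was near that of all genes with cisplatin (26.3% against 30.2%), and no difference in share was tested. BARD1, BRCA2, FANCF, FANCM, NBN and RBBP8 were called with Pt-ttpy in this fit alone out of 23. So were FANCE, NBN and RBBP8 with cisplatin, and FANCM and UBE2T between the drugs. A correction of all 9 libraries for GC content, added after the trend had been seen, gave 3 members with Pt-ttpy (7.89%, against 26.7% of 13383 genes, 12.9% higher and 13.8% lower; FANCD2 higher, FAAP100 and RAD51D lower). With cisplatin it gave 7 (18.4%, against 36.7%, of which 17.6% higher and 19.1% lower; FAN1 and RAD51C higher, FAAP100, FANCB, FANCM, RAD51D and SLX4 lower), and between the drugs 1 (2.63%, against 1.79%, of which 0.456% higher and 1.33% lower; RAD51C lower with Pt-ttpy). FAAP100 and RAD51D were lower after both drugs in both of these fits.

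Of 45 other genes of these pathways, all tested, 2 rose and 1 fell with Pt-ttpy (median −0.08) and 2 rose and 7 fell with cisplatin (median −0.16), and 0 differed between the drugs. Called genes were 6.67% of the list with Pt-ttpy, against 12.0% of all tested genes, and 20% with cisplatin, against 20.5%. Between the drugs 0.514% of all tested genes were called. ABRAXAS1, which brings BRCA1 to ubiquitinated chromatin, was at 22.1, 8.93 and 20.8 CPM with DMSO, 45, 44.9 and 44.5 with cisplatin and 42.6, 46.0 and 35.6 with Pt-ttpy. Every treated library was above every control, and it rose by 1.26 with Pt-ttpy (SE 0.26, adjusted p = 0.0153) and 1.38 with cisplatin (SE 0.26, adjusted p = 0.00586). CENPX, a histone-fold partner of FANCM, was at 80.9, 107.4 and 77.0 CPM with DMSO and fell by 0.72 with Pt-ttpy (adjusted p = 0.0182) and by 0.78 with cisplatin (adjusted p = 0.00737). WRN, a helicase, rose by 0.50 with Pt-ttpy (adjusted p = 0.0441). With cisplatin the resection nuclease EXO1 fell by 0.65 (adjusted p = 0.00763) and PSMC3IP, a cofactor of strand exchange, by 0.60 (adjusted p = 0.0158).

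Genes of end joining, the competing route of break repair, were called in 1 of 16 cases with Pt-ttpy and 4 of 16 with cisplatin, shares of 6.25% and 25.0% against 12.0% and 20.5% of all tested genes. MAD2L2, which as a shieldin subunit holds back resection, fell by 0.69 with Pt-ttpy (adjusted p = 0.0168) and by 0.74 with cisplatin (adjusted p = 0.00725). With cisplatin the Ku subunit XRCC6 fell by 0.41 and the ligation factor NHEJ1 by 0.40, while the polymerase gene POLL rose by 0.75. Among 28 genes of S phase and proliferation 7 fell with Pt-ttpy (median −0.15) and 14 with cisplatin (median −0.41), and 0 rose with either. These are shares of 25% and 50%, against 6.45% and 9.78% of all tested genes that fell. Over the 7 libraries 14 fell and 1 rose with Pt-ttpy (CDT1, named after its value was seen; median −0.14), 17 fell with cisplatin (median −0.20), and 3 were higher with Pt-ttpy than with cisplatin. AURKA fell by 0.41 with Pt-ttpy and 0.54 with cisplatin, CCNB1 by 0.40 and 0.49, PLK1 and CCNE1 by 0.56 and 0.46 with Pt-ttpy, and RRM2 and E2F2 by 0.64 and 0.61 with cisplatin. Of the 20 calls of genes named from these 3 lists, 10 were kept whichever single library was left out, all of them with cisplatin. Each Pt-ttpy call was lost both without Pt-ttpy 1 and without Pt-ttpy 2, left out in turn. The call of WRN was lost in 7 of the 9 fits without 1 library (all but those without DMSO 1 or cisplatin 2, adjusted p up to 0.135). That of CCNE1 was lost in 5 (also without Pt-ttpy 3, DMSO 1 or DMSO 2, up to 0.113) and that of CCNB1 in 4 (also without Pt-ttpy 3 or DMSO 2, up to 0.122). Those of CENPX, MAD2L2, AURKA and PLK1 were also lost without Pt-ttpy 3. The cisplatin call of POLL was lost without DMSO 1, DMSO 3, cisplatin 2, Pt-ttpy 2 or Pt-ttpy 3 (up to 0.114), and that of NHEJ1 whichever single library was left out (up to 0.117). The members' medians beside these were 0.12 and −0.06, and the part of proliferation in the members' values was not tested.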

How the data were processed

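The authors deposited 1 table of raw counts per gene for the 9 libraries. The genome build was GRCh38, per the submitters' processing notes; for the aligner, the counter and the strand setting, no name is given in the sources used here. RNA was taken up with a column kit and made into mRNA libraries, per the labels' protocols. Members were matched through Ensembl identifiers (19883 of 19974 had a symbol), and 4568 loci named newGene were kept.

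Counts were filtered (filterByExpr, minimum count 10), scaled with TMM and fitted with edgeR 4.0.16 (R 4.3.3), robust quasi-likelihood, 1 mean per group over 9 libraries. P-values were adjusted (Benjamini-Hochberg) over 15558 genes and called under 0.05, and 95% intervals are t intervals of the fitted change. Alternatives were 22 other fits, among them DESeq2 1.42.0, limma-voom (limma 3.58.1), other scalings and filters, 9 fits without 1 library, 7 libraries, and a GC correction (lowess span 0.3), chosen after seeing the data. Transcript length and GC content come from GENCODE 29. The main fit was tested on simulated counts with changes set in Pt-ttpy and with no GC trend in any library. The other fits were not tested in this way. No libraries were duplicates. The members and the lists were chosen with earlier results of these data known. Full values were given to called members and to BRCA1, BRCA2, FANCD2, FANCI, PALB2, MRE11 and RAD52, and up to 4 called genes were named per further list and comparison. The library values of FAN1, FANCB, FANCM, NBN, RAD51C and UBE2T were added after they had been seen.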

Additional observations from a re-analysis of the deposited data

How the results depend on the processing

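The number of members called depended on the fit, and so did the share of all genes called. With Pt-ttpy that share was 12.0% in the main fit, 26.7% with the GC correction and 33.2% with 7 libraries. With cisplatin it was 20.5%, 36.7% and 30.2%, and between the drugs 0.514%, 1.79% and 5.20%. For the other fits it is not given here, so their counts of members have no such share beside them. For Pt-ttpy against DMSO 1 member was called, and 2 with upper-quartile factors, with library totals, with a minimum count of 50, with the 6 libraries of the comparison or without newGene loci, 3 with the GC correction, 4 with DESeq2's Wald test and 10 with 7 libraries. For cisplatin against DMSO 3 were called, and 0 with the 6 libraries, 1 without newGene loci, 7 with the GC correction and 10 with 7 libraries. The direction of the calls also depended on scaling. With cisplatin 1 rose and 1 fell with upper-quartile factors, and 2 rose and 1 fell with library totals. With Pt-ttpy 1 rose and 1 fell with either scaling. Between the drugs 0 were called, 1 with the GC correction and 3 with 7 libraries. Leaving out 1 library at a time gave 0 to 4, 1 to 4 and 0 to 0. When Pt-ttpy 1, 2 or 3 was left out, the Pt-ttpy calls among the proliferation genes also went from 7 to 0. With 7 libraries BRCA2 (−0.26, adjusted p = 0.0132) and FANCM (−0.35, adjusted p = 0.0232) turned to falls with Pt-ttpy, each called in that fit alone. With 7 libraries the other pathway genes called went from 3 to 12 and from 9 to 19 for the 2 drugs, end joining from 1 to 8 and 4 to 8, and proliferation from 7 to 15 with Pt-ttpy and from 0 to 3 between the drugs. Apart from the changes in which libraries and genes were fitted, the cause was not tested. The median change kept its sign in all 22 other fits for Pt-ttpy against DMSO and between the drugs, but not for cisplatin.

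With a replicate block 2 members were called for Pt-ttpy, 3 for cisplatin and 0 between the drugs. The share of all genes called in that fit is not given here. The labels do not say that a replicate number marks a shared culture or day. Same-numbered libraries correlated in their deviations at −0.039 to 0.221. Each DMSO library correlated best with the cisplatin library of its number (0.100, 0.221 and 0.082), but the Pt-ttpy libraries did not follow the numbers. The numbers were not taken to pair the libraries in the main fit, and a structure shared by DMSO and cisplatin was not tested.

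With 3 libraries per group the median 95% interval of a member was 0.70 wide (log2), so small changes were not detectable in many members.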
